A study of Mus musculus with 6 samples.

Results

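Peptides made in the cytosol reach MHC class I molecules through a chain of dedicated proteins, and 8 genes of that chain were followed here in whole tumours. They were the peptide transporter subunits Tap1 and Tap2, the peptide editors Tapbp (tapasin) and Tapbpl, the trimming enzyme Erap1, the transactivator Nlrc5 and the folding helpers Pdia3 and Canx. The members were chosen by gene symbol, and 8 of the 17352 genes in the deposited table are in the set. Panc02, a pancreatic cancer line of the mouse, was implanted subcutaneously, and the 6 tumours were sequenced whole after 4 weeks. In 3 hosts Anxa1, which encodes the phospholipid-binding protein annexin A1, was deleted in myeloid cells (Anxa1ΔMφ), and the other 3 were wild-type hosts with an Anxa1flox/flox gene. The hosts are called deficient (tumours 3, 4 and 5) and wild type (tumours 2, 3 and 5), by the numbers in their labels, and values are listed in that order. The letters HFD stand in every sample name without a definition, and for the hosts neither a Cre driver nor age or sex is stated.

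In the textbook account, the heterodimer of Tap1 and Tap2 pumps peptides into the endoplasmic reticulum. There tapasin, joined to the oxidoreductase Pdia3 and the chaperone calreticulin, holds empty class I molecules beside the pump, and Erap1 trims peptides that are too long. Calnexin (Canx) binds class I heavy chains soon after synthesis and, like Pdia3, serves many other glycoproteins. Nlrc5 is a nuclear NLR protein that acts with RFX factors at an SXY module of class I promoters, and the transporter, tapasin and Nlrc5 genes are known targets of interferon gamma. In tumours, loss of this machinery is a known way of hiding from CD8 T cells.

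Promoter windows are shown for 3 members because they hold the interferon, class I and folding-stress motifs that were searched. Each is the RefSeq sequence of GRCm38.p6 from 250 bases before to 50 bases after the start site, and capitals mark motif matches.
Tap1, chr17:34187306-34187605, plus strand: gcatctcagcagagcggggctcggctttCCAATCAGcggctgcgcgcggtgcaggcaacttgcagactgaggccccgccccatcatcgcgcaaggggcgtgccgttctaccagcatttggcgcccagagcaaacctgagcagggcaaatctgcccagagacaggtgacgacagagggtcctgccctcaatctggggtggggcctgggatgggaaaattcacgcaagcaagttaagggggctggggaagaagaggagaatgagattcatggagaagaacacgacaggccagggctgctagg
Erap1, chr13:74639603-74639902, plus strand: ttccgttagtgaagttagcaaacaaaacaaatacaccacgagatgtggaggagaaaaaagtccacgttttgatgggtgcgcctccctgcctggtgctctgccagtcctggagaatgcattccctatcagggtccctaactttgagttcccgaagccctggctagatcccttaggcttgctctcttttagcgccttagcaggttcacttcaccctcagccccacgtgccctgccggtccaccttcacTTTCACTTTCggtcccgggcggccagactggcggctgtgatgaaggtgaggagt
Canx, chr11:50325624-50325923, minus strand: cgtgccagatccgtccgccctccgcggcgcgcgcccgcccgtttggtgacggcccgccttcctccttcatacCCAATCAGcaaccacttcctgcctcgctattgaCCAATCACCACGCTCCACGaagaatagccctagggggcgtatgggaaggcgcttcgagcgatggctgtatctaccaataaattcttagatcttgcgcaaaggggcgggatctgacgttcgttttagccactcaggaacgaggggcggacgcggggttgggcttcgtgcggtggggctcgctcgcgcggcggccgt

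Windows were found for 5 of the 8 members, namely Tap1, Tapbp, Erap1, Pdia3 and Canx. Tap2, Tapbpl and Nlrc5 were not matched. The interferon-stimulated response element, searched as GAAANNGAAA on both strands, was in the Erap1 window from 4 bases before to 6 bases after the start site. It was in 3.44% of all 32851 windows. The Y box of class I promoters, searched as CTGATTGG on both strands, was in the windows of Tap1 (222 to 215 bases before the start) and Canx (178 to 171 bases before), and in 4.10% of all windows. Tap1 lies head to head with the immunoproteasome gene Psmb9 on chromosome 17, and their windows share 275 bases, this match included. The element that answers folding stress, searched as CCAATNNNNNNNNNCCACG on both strands, was in the Canx window 145 to 127 bases before the start, and in 0.119% of all windows. The gamma-activated site, searched as TTCNNNGAA, was in 8.30% of all windows and in 0 of the 5. Tapbp and Pdia3 held none of the 4 motifs. The matches are a description of these letters and were not tied to binding data.

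**Figure D1:**
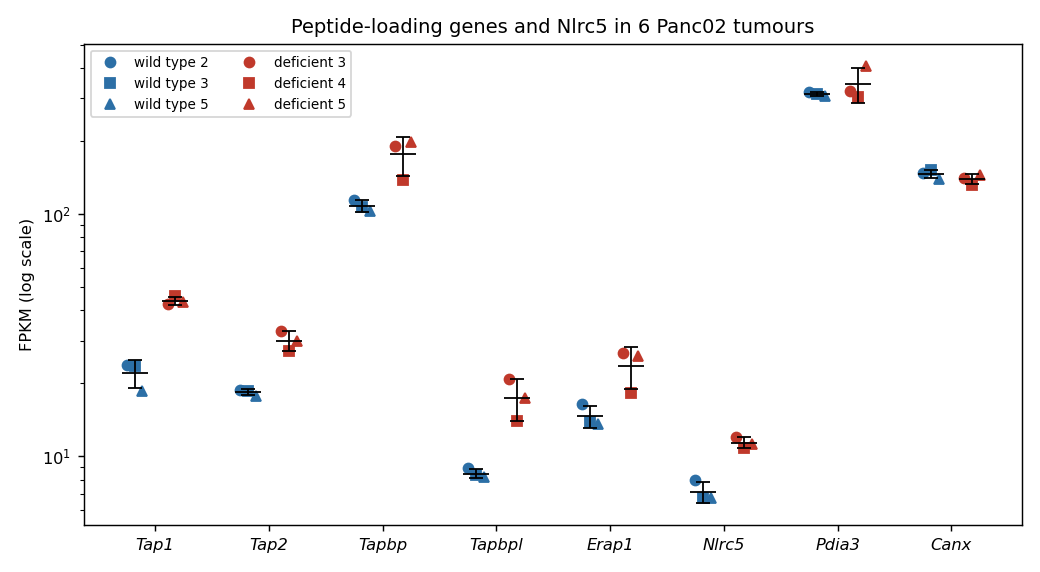
FPKM of each member in each tumour on a log axis, with wild-type tumours in blue and deficient tumours in red; the horizontal marks and bars are the mean and SD (n = 3). The groups stand apart for 6 genes and overlap for Pdia3 and Canx.

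Anxa1, the targeted gene, had 249.9, 330.2 and 290.5 FPKM in the deficient tumours, against 341.8, 354.4 and 394.2 in the wild-type tumours. It was lower in each deficient tumour than in any wild-type tumour, with a log2 fold change of -0.33 that did not pass (adjusted p = 0.268). The values imply 37500000 to 41100000 fragments a library.

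Tap1, Tap2, Tapbp, Tapbpl, Erap1 and Nlrc5 had higher levels in each deficient tumour than in any wild-type tumour, whereas the groups overlapped for Pdia3 and Canx. In limma, with adjustment over the 12257 genes tested, 4 of the 8 members rose (Tap1, Tap2, Tapbpl and Nlrc5) and 0 fell. Of all tested genes, 0.979% rose and 0.228% fell. Groups that did not overlap, with deficient above wild type, were found for 6 of the 8 members and 11.8% of all tested genes, and with deficient below for 0 members and 8.31% of genes. The median log2 fold change of the members was 0.66, beside 0.02 for all tested genes. Of the 12257 tested genes, 6706 had a log2 fold change above 0. Fold changes refer to log2(FPKM + 1), which understates those of low genes. The number of members that passed varied between fits that left out 1 tumour, which also have fewer libraries. None passed (0) after leaving out deficient 3 or wild type 3. Only Tap1 (1) did after leaving out deficient 5, wild type 2 or wild type 5, and 6 did after leaving out deficient 4. An unfiltered fit called 0 members, and with library totals scaled to 1000000 only Tap1 and Tap2 did. The 6 members kept an unadjusted p under 0.05 in each of these fits. In whole tumours, more cells of a type and more RNA per cell cannot be told apart, and the p-values measure the spread between these samples.

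Tap1, which forms the transporter with Tap2, had 42.3, 45.8 and 43.3 FPKM (fragments per kilobase of transcript per 1000000 fragments) in deficient 3, 4 and 5. In wild type 2, 3 and 5 it had 23.8, 23.5 and 18.6 FPKM. The lowest deficient tumour was thus 1.78 times the highest wild-type tumour, the widest such gap among the members. The means were 43.8 ± 1.81 and 21.96 ± 2.92 FPKM (SD, n = 3). Tap1 rose by 0.97 on the log2 scale (SE 0.11, 95% interval 0.72 to 1.22, adjusted p = 0.0160), the smallest p among the members. Its adjusted p was 0.0688 without deficient 3, 0.0632 without wild type 3 and 0.0608 in the unfiltered fit.

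Tap2, its partner, had 32.8, 27.3 and 29.9 FPKM in the deficient tumours and 18.7, 18.6 and 17.8 in the wild-type tumours. The wild-type tumours were nearly level, with a coefficient of variation of 2.78%, and all lay below the deficient ones. The means were 30.0 ± 2.77 and 18.4 ± 0.510 FPKM (SD, n = 3). Tap2 rose by 0.67 (SE 0.09, 95% interval 0.47 to 0.88, adjusted p = 0.0273). Both genes lie on chromosome 17 with Psmb8 between them, the gene of another immunoproteasome subunit.

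The balance between the transporter subunits was then compared. The within-tumour ratio of Tap1 to Tap2 in FPKM was 1.29, 1.68 and 1.45 in the deficient tumours, against 1.27, 1.26 and 1.05 in the wild-type tumours. The deficient values lay above the wild-type values, though deficient 3 exceeded wild type 2 only narrowly. The log2 ratio was higher by 0.30, with a two-sided exact permutation p of 0.10. That is the smallest p that 3 against 3 tumours allow, and it was also 0.10 after adjustment over the 4 ratios tested. A ratio within a library does not depend on how libraries are scaled, apart from the pseudocount.

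Tapbp, which bridges the transporter and class I molecules, was far more abundant than the transporter, with 191.5, 138.4 and 197.9 FPKM in deficient 3, 4 and 5. Wild type 2, 3 and 5 had 114.2, 107.1 and 102.5 FPKM. Deficient 4 lay closest to the wild-type tumours, at 1.21 times the highest of them. The means were 175.9 ± 32.7 and 107.9 ± 5.87 FPKM (SD, n = 3). The log2 fold change was 0.68 (SE 0.14, 95% interval 0.35 to 1.01) and did not pass (adjusted p = 0.0784). It was 0.85 and passed (adjusted p = 0.00840) without deficient 4.

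Tapbpl, the tapasin relative that edits peptides outside the loading complex, had 20.9, 14.001 and 17.5 FPKM in the deficient tumours and 8.93, 8.34 and 8.19 in the wild-type tumours. Deficient 4 was again the lowest of its group, and the wild-type tumours varied by 4.63%. The means were 17.4 ± 3.43 and 8.49 ± 0.393 FPKM (SD, n = 3), a ratio of 2.06 that was the highest among the members. Tapbpl rose by 0.94 (SE 0.14, 95% interval 0.62 to 1.26, adjusted p = 0.0344). The FPKM ratio of Tapbp to Tapbpl was 9.18, 9.88 and 11.3 in the deficient tumours, against 12.8, 12.8 and 12.5 in the wild-type tumours. The groups did not overlap, and the log2 ratio was lower by 0.26 in deficient tumours on average (difference -0.26, two-sided exact permutation p = 0.10, the smallest possible).

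Erap1, the aminopeptidase that shortens peptides in the endoplasmic reticulum, had 26.8, 18.2 and 25.8 FPKM in deficient 3, 4 and 5. It had 16.4, 13.9 and 13.6 FPKM in wild type 2, 3 and 5. Deficient 4 was at only 1.11 times wild type 2, the narrowest gap among the 6 members that did not overlap. The means were 23.6 ± 4.72 and 14.6 ± 1.55 FPKM (SD, n = 3), with a log2 fold change of 0.64 (SE 0.15, 95% interval 0.28 to 0.9998, adjusted p = 0.113) that did not pass. Without deficient 4 it was 0.81 and passed (adjusted p = 0.0187).

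Nlrc5, the class I transactivator, was the lowest member in each tumour, with 12.01, 10.9 and 11.3 FPKM in the deficient tumours, against 7.94, 6.69 and 6.73 in the wild-type tumours. The deficient tumours were close to each other and above all wild-type tumours. The means were 11.4 ± 0.583 and 7.12 ± 0.712 FPKM (SD, n = 3). Nlrc5 rose by 0.61 (SE 0.10, 95% interval 0.38 to 0.84, adjusted p = 0.0417). Of the fits that left out 1 tumour, its call was kept without deficient 4 (adjusted p = 0.0419) and lost in the other 5 (0.0514 to 0.185).

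Pdia3, the disulfide isomerase that pairs with tapasin, was the most abundant member at 321.0, 302.9 and 408.6 FPKM in deficient 3, 4 and 5. Wild type 2, 3 and 5 had 319.5, 314.0 and 305.9 FPKM. Deficient 5 stood apart from the other tumours, which overlapped. The log2 fold change was 0.12 (SE 0.12, 95% interval -0.16 to 0.41, adjusted p = 0.683). Without deficient 5 it was -0.0057.

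Canx, the membrane-bound lectin chaperone calnexin, had 141.4, 132.0 and 144.2 FPKM in deficient tumours and 146.9, 151.3 and 140.0 in wild-type tumours. The groups overlapped. Its log2 fold change was -0.07 (SE 0.08, adjusted p = 0.734), and the 95% interval of -0.25 to 0.12 lies below the whole interval of each member that rose. The FPKM ratio of Tap1 to Canx was 0.299, 0.347 and 0.30 in the deficient tumours, against 0.162, 0.155 and 0.133 in the wild-type tumours. The deficient ratios were all above the wild-type ratios, with a log2 difference of 1.04 (two-sided exact permutation p = 0.10, the smallest possible).

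**Figure D2:**
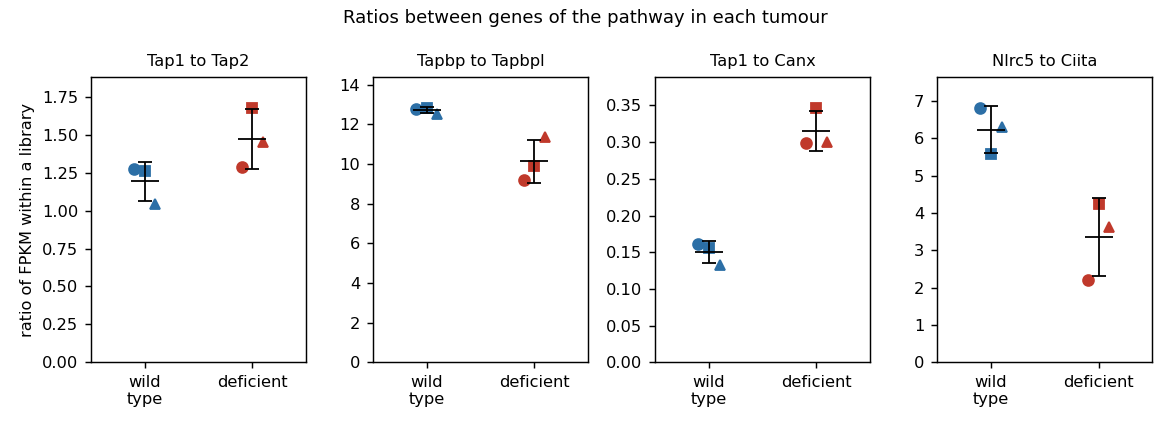
FPKM ratios within each tumour for 4 gene pairs, wild type in blue and deficient in red, with mean and SD (n = 3) and axes from 0; the symbol shapes tell the tumours of a group apart. Tap1 was higher relative to Tap2 and to Canx in deficient tumours, and Tapbp relative to Tapbpl and Nlrc5 relative to Ciita were lower.

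The order of the levels, which FPKM makes comparable per length, was nearly the same in all tumours. Pdia3 was the highest, Tap1 the fourth, Tap2 the fifth, Erap1 the sixth, Tapbpl the seventh and Nlrc5 the last in each of the 6. Tapbp and Canx changed places. Canx was above Tapbp in each wild-type tumour, with Tapbp to Canx ratios of 0.777, 0.708 and 0.732 in wild type 2, 3 and 5. Tapbp was above Canx in each deficient tumour, with ratios of 1.35, 1.05 and 1.37 in deficient 3, 4 and 5. This pair was picked after its values were seen and was not tested. Some neighbours had ranges that overlapped over a group, though their order was the same in each of its tumours. These were Tap1 and Tap2 in the wild-type group, and Erap1 and Tapbpl, and Tapbp and Canx, in the deficient group.

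The members also differed in how even they were within a group. In deficient tumours the coefficient of variation was 4.13% for Tap1, 5.13% for Nlrc5 and 9.25% for Tap2. It was 18.6% for Tapbp, 19.7% for Tapbpl and 19.97% for Erap1. In wild-type tumours Tap1 varied most, at 13.3%, and Pdia3 least, at 2.20%. The members had between 794 fragments (Tapbpl in wild type 5) and 40683 fragments (Pdia3 in deficient 5), which gives a counting error of 3.55% at most. In the wild-type tumours this was close to the spread for Tap2, with a counting error of up to 2.41% beside 2.78%, and for Tapbpl, with up to 3.55% beside 4.63%.

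Over the 6 libraries, Tapbp and Erap1 had the most alike profiles of the 28 member pairs. Their distance was 0.132, measured as the Euclidean distance between log2 profiles that were centred on each gene's mean. Within the deficient group both were lowest in tumour 4, as were all members other than Tap1, which was highest in that tumour. Tap2 and Nlrc5 followed at 0.193, and Tap1 and Canx were farthest apart at 1.302. These distances contain the group difference as well as the spread within groups.

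**Figure D3:**
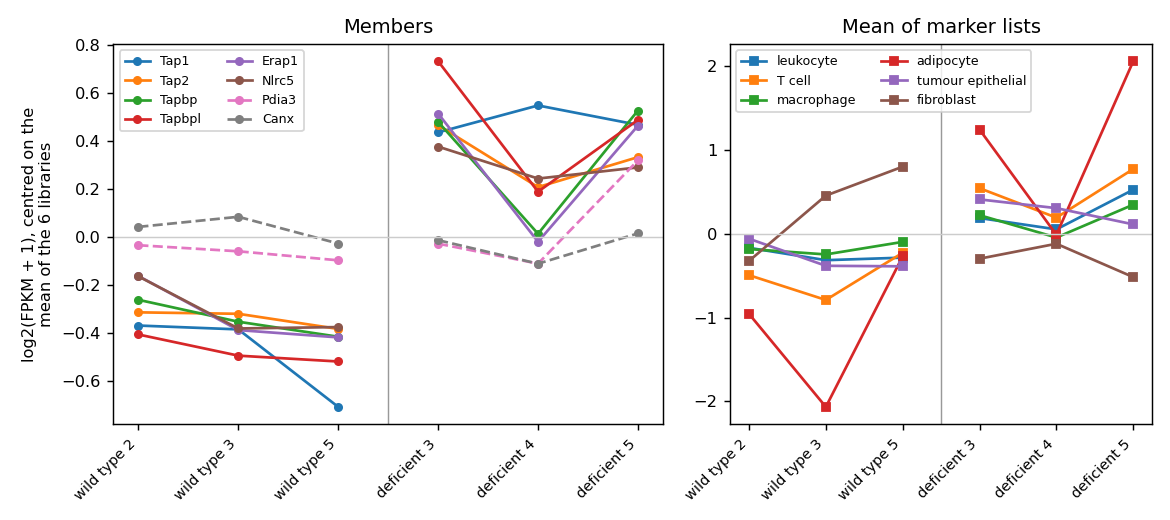
Left, log2(FPKM + 1) of each member, centred on its mean over the 6 libraries; right, the mean of the same centred values for 6 marker lists, with lines joining the points of 1 gene or list within a group. Within the deficient group Tap1 is highest in tumour 4, while the other 7 members and the leukocyte, T cell, macrophage and adipocyte lists are lowest there.

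Among all 12257 tested genes, the profile nearest to that of Tap1 was Ube2l6, a conjugating enzyme of ISG15, at a distance of 0.283. Its FPKM was 50.8, 45.1 and 46.7 in the deficient tumours, against 30.1, 27.2 and 22.4 in the wild-type tumours, and it rose by 0.82 (adjusted p = 0.0340). Ms4a4c, Socs1 (an inhibitor of cytokine signalling), Slfn2 and Bst1 came next, at 0.372 to 0.392. The nearest to Nlrc5 were Gpr141 at 0.0931, Nmi at 0.135, Atf5, Samd5 and Gpr84 at up to 0.176. Nmi had 16.5, 16.6 and 15.8 FPKM in the deficient tumours, against 11.9, 10.4 and 9.67 in the wild-type tumours. Of these 10 neighbours, 5 were called higher (Ube2l6, Slfn2 and Bst1 near Tap1, Nmi and Samd5 near Nlrc5), and genes near a member share its group difference by construction.

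Genes of the steps before and after peptide loading also rose. Of the 9 genes in the list of class I heavy chains and B2m, 6 rose, with a list median of 0.80. B2m itself did not pass (adjusted p = 0.0988), though its groups did not overlap. Of all tested genes, 0.979% were called higher and 0.228% lower. H2-K1, a classical heavy chain, had 954.2, 686.0 and 1001 FPKM in the deficient tumours, against 449.7, 397.7 and 383.8 in the wild-type tumours. It rose by 1.08 (SE 0.16, adjusted p = 0.0344). H2-Q4 rose by 1.15 (adjusted p = 0.0107) and H2-M3 by 0.71 (adjusted p = 0.0244). Reads of H2 genes may be shared among near-identical copies. Of 5 immunoproteasome and PA28 genes 3 rose (median 1.01), namely Psmb9 by 1.41, Psmb8 by 1.34 and Psme1 by 0.64. Psmb9, whose window overlaps that of Tap1, had adjusted p = 0.00758. Of the 3 constitutive catalytic subunits 0 passed (median 0.25), with Psmb5 at 0.25 (adjusted p = 0.202), Psmb7 at 0.26 and Psmb6 at 0.18.

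Other peptidases gave no call, near the share of all tested genes that were called (0.979% higher, 0.228% lower). Of 8 tested cytosolic and endosomal peptidases 0 passed (median 0.06). Lap3, leucine aminopeptidase, was at 0.61 (adjusted p = 0.0840), with 49.1, 38.5 and 42.0 FPKM in the deficient tumours, against 30.4, 29.9 and 23.5 in the wild-type tumours. Its groups did not overlap. Lnpep, the endosomal relative of Erap1, was at -0.34 (adjusted p = 0.331), and Dnpep at 0.18 (adjusted p = 0.415).

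Folding genes of the endoplasmic reticulum gave no call, near the share of all tested genes (0.979% called higher, 0.228% lower). Of 21 tested genes of the calnexin cycle and folding 0 passed, 16 had a log2 fold change above 0, and the median was 0.04. Calr, calreticulin, which takes part in the loading complex, had 457.9, 397.4 and 537.2 FPKM in the deficient tumours, against 397.7, 465.3 and 398.8 in the wild-type tumours. Its groups overlapped (log2 fold change 0.13, adjusted p = 0.679), and like Pdia3 it was highest in deficient 5. The FPKM ratio of Pdia3 to Calr ranged from 0.701 to 0.762 in deficient and from 0.675 to 0.803 in wild-type tumours. Sdf2l1 was at 0.40 (adjusted p = 0.358), Uggt1 at 0.24 and Edem1 at 0.17. Of 8 regulators of the unfolded protein response 0 passed (median -0.08). The sensor Ern1 was at -0.32 (adjusted p = 0.199), Atf4 at 0.23 and Atf6 at -0.19.

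The DNA-binding partners through which Nlrc5 acts gave no call, near the share of all tested genes (0.979% called higher, 0.228% lower). Of 8 genes in that list, which also holds Ciita, 0 passed and the median was 0.04. Rfxank was at -0.15 (adjusted p = 0.572), Creb1 at -0.14 and Rfx5 at -0.09. Ciita, the class II counterpart of Nlrc5, had 5.45, 2.57 and 3.10 FPKM in the deficient tumours, against 1.17, 1.201 and 1.07 in the wild-type tumours. Its groups did not overlap, and its log2 fold change of 1.09 (SE 0.21, adjusted p = 0.0630) did not pass. The FPKM ratio of Nlrc5 to Ciita was 2.20, 4.23 and 3.63 in the deficient tumours, against 6.82, 5.57 and 6.29 in the wild-type tumours. The difference of the log2 ratio was -0.48 with a pseudocount of 1 and -0.87 with 0.1 (two-sided exact permutation p = 0.10 for both, the smallest possible). Without deficient 3 it was -0.26.

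Among 13 genes of interferon signalling, 12 had a log2 fold change above 0, as did 6706 of all 12257 tested genes. Of the 13, 1 rose, beside 0.979% of all tested genes, and the median was 0.24. The gene that rose was Ifng itself, which encodes interferon gamma, by 0.96 (SE 0.17, adjusted p = 0.0466). Its FPKM was low, at 1.54, 0.845 and 1.47 in the deficient tumours, against 0.335, 0.149 and 0.0212 in the wild-type tumours. These are 70, 42 and 67 fragments against 16, 7 and 1. Ifng met the filter on mean FPKM only through the deficient tumours. The transcription factor Irf1 was at 0.75 and did not pass (adjusted p = 0.133), though its groups did not overlap. Relatives of the members outside antigen presentation gave no call, which is near the share over all tested genes (0.979% called higher, 0.228% lower). Of 7 tested ABC transporters of the family of Tap1 and Tap2 0 passed (median 8.0e-04), with Abcb4 at -0.39 and Abcb1a at 0.17. Abcb4 was low, with 25 to 164 fragments, and met the filter on mean FPKM only through the wild-type tumours. Of 6 tested NLR genes other than Nlrc5 0 passed (median 0.21), with Nlrp3 at 0.54 (adjusted p = 0.163), Naip2 at 0.69 and Nod1 at 0.23. Differences between these lists were not tested.

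**Figure D4:**
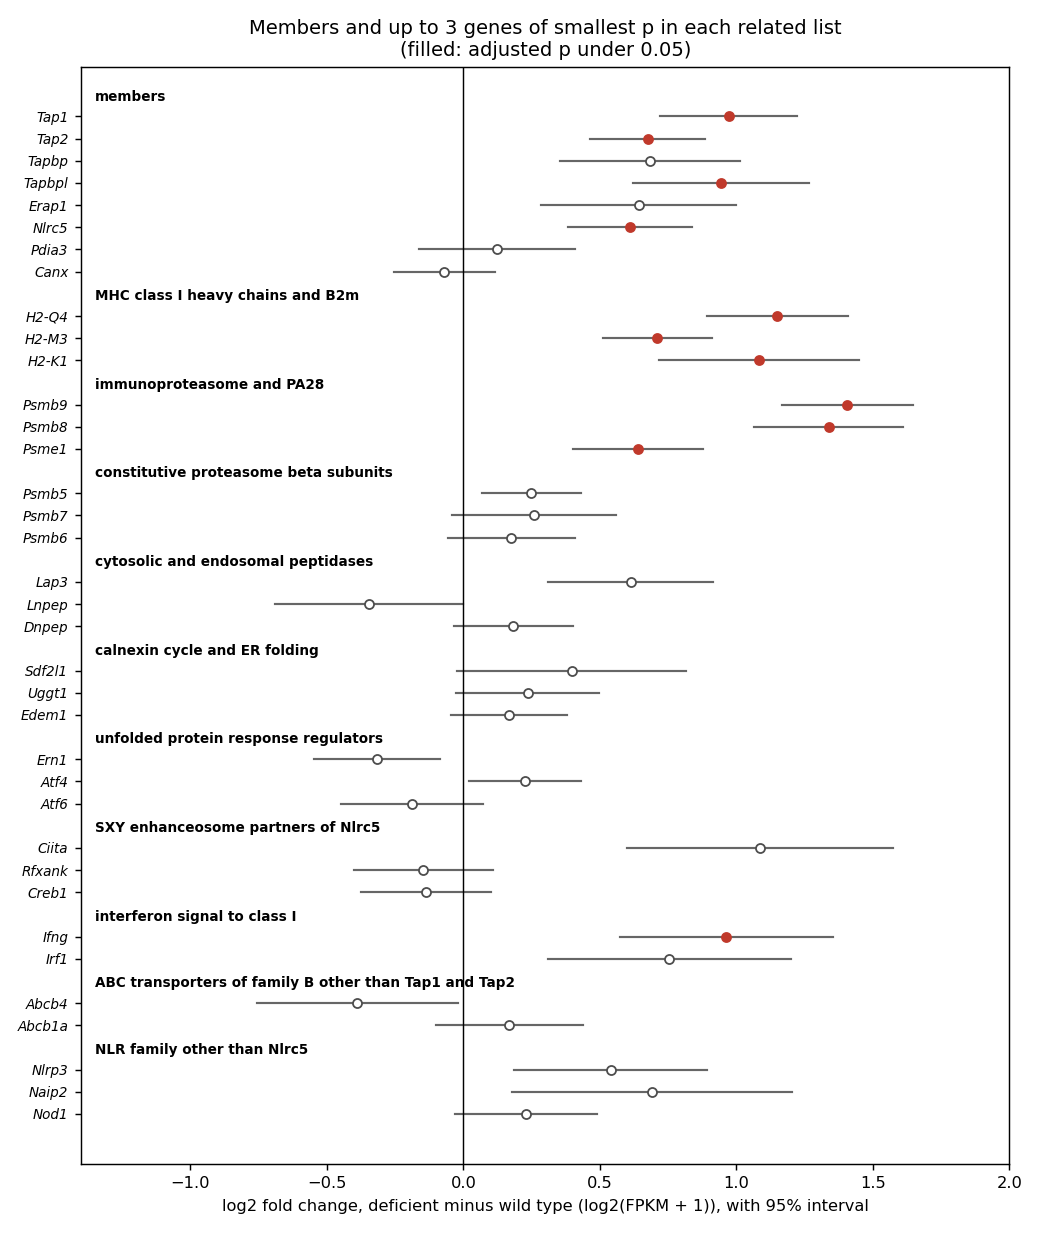
Log2 fold change (deficient minus wild type, on the log2(FPKM + 1) scale) with its 95% interval for the 8 members and up to 3 genes with the smallest p in each of 10 related lists; filled points had an adjusted p under 0.05. Filled points are 4 members, 3 class I genes, 3 immunoproteasome and PA28 genes and Ifng.

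Marker sums of some cell types lay apart between the groups, and those of others overlapped. The summed FPKM of 5 leukocyte markers was 492.9 to 677.1 in deficient and 368.4 to 408.3 in wild-type tumours, with 5 of 5 above 0 on the log2 scale and 1 (Cd52) called. Ptprc (CD45) had 22.9, 19.4 and 26.2 FPKM in the deficient tumours, against 13.7, 15.2 and 15.1 in the wild-type tumours. The 7 T cell markers summed to 45.9 to 72.8 against 19.7 to 33.6 FPKM, and 3 were called higher. The share of all tested genes called higher was 0.979%. The 7 macrophage markers summed to 1648 to 2107 against 1431 to 1526, and 0 were called. The 6 adipocyte markers summed to 46.1 to 224.7 against 0.832 to 27.2, all 6 were above 0 on the log2 scale and 0 were called. Taken singly, markers that did not overlap (deficient above) were 4 of 5 leukocyte, 6 of 7 T cell and 3 of 7 macrophage markers. Among the adipocyte and epithelial markers they were 3 of 6 and 2 of 6, beside 11.8% of all tested genes. Retn, among those adipocyte markers, and Plin1 had wild-type means of 0.113 and 0.455 FPKM. Both met the filter on mean FPKM only through the deficient tumours. Adipoq alone had 15.8, 5.57 and 26.9 against 3.91, 0.313 and 10.1 FPKM, and Retn was at 0 in wild type 3. Sums of the 6 epithelial markers overlapped (460.2 to 609.9 against 452.8 to 551.6), as did those of 6 fibroblast markers (1288 to 2106 against 1650 to 4233), of 5 endothelial markers (40.0 to 65.4 against 37.3 to 55.5) and of 5 skeletal muscle markers (2.02 to 16.04 against 1.86 to 34.8). On the log2 scale 5 of the 6 epithelial, 1 of the 6 fibroblast, 3 of the 5 endothelial and 0 of the 4 tested muscle markers were above 0, and 0 were called. The median of the fibroblast markers was -0.66, and Lum (-1.11) and Dcn (-0.65), which encode collagen-binding proteoglycans, were lower in each deficient tumour than in any wild-type tumour. Krt18 at 202.1 to 251.1 FPKM showed keratin RNA in all tumours. Most of the epithelial sum came from Krt8 and Krt18. The median of the epithelial markers was 0.34 on the log2 scale, and those that did not overlap were Epcam and Cdh1. Epcam was at 1.19 to 5.47 FPKM in deficient tumours and at 0.0983 to 0.324 in wild-type tumours. It met the filter on mean FPKM only through the deficient tumours. The acinar genes Cpa1 and Prss2 were at 0.156 FPKM or less, and Cela1 at 2.56 to 5.64. All 4 Y-linked genes were lower in each deficient tumour than in any wild-type tumour, and Ddx3y had 0.0441, 0.126 and 0 FPKM in the deficient tumours, against 3.13, 5.26 and 6.79 in the wild-type tumours. Host sex is not stated. In every comparison of the groups here, host genotype cannot be told apart from these Y-linked transcripts or from a difference in host sex.

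The members were also fitted beside these marker levels. With the mean log2 level of the 5 leukocyte markers as a covariate, the log2 fold change was 0.98 for Tap1, 0.60 for Tap2, 0.74 for Tapbpl and 0.52 for Nlrc5. In the same fit it was 0.23 for Tapbp (95% interval -0.29 to 0.74) and 0.19 for Erap1 (95% interval -0.41 to 0.796). With the mean of the 6 adipocyte markers it was 1.18 for Tap1, 0.61 for Tap2, 0.74 for Tapbpl, 0.55 for Nlrc5, 0.38 for Tapbp and 0.33 for Erap1. Tap1, Tap2, Tapbpl and Nlrc5 had an unadjusted limma p under 0.05 in both fits, and Tapbp and Erap1 did not. Over all genes 0 members passed in either fit (lowest adjusted p 0.210, for Tap1), and limma called 0 genes higher and 0 lower. The covariates differ between the groups, which leaves little to separate them with 6 tumours, and the part of these cell types in the members' levels was not tested.

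**Figure D5:**
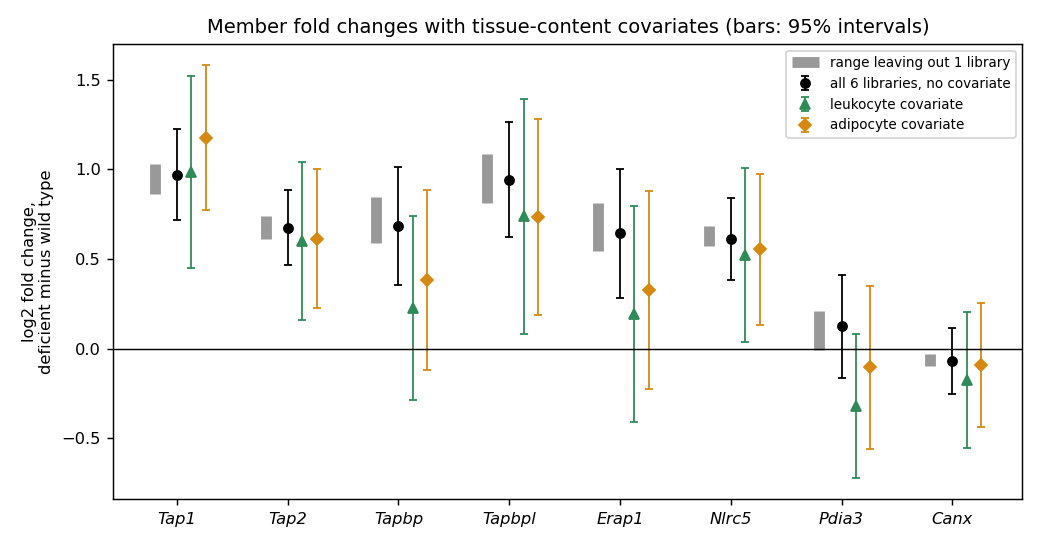
Log2 fold change of each member in the fit to all 6 libraries (black), with the leukocyte covariate (green) and with the adipocyte covariate (orange), each with its 95% interval; grey bars span the fits that left out 1 library. The intervals of Tap1, Tap2, Tapbpl and Nlrc5 stay above 0 in all 3 fits, and those of Tapbp and Erap1 include 0 with a covariate.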

How the data were processed

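RNA of whole tumours was extracted with TRIzol, and libraries made with a VAHTS Universal V6 kit were sequenced as 150 bp read pairs, per the labels' protocols. HISAT2, HTSeq and R 3.2.0 are named, without roles, per the submitters' processing notes. No source used here names a genome build or annotation. The authors deposited 1 table of 17352 genes with 1 value per library, and these deposited values were taken to be FPKM.

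The unit was checked on the values. In 16542 of the 16543 genes above 0 in at least 2 libraries, the values were whole multiples of 1 fragment (relative tolerance 1e-10). Implied gene lengths were whole numbers for 99.2% of 11844 genes, at implied totals of 37500000 to 41100000 fragments a library. The length scale was the smallest that made nearly all lengths whole, so that share was partly set by the method. The recovered fragments made up a mean share of 0.9812 of the implied totals. A gene could show a multiple of its true fragments if all 6 counts share a factor.

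Genes with a mean FPKM of at least 0.5 (12257) were fitted on log2(FPKM + 1) using limma (version 3.58.1, R 4.3.3) with a group term, an intensity trend for the variance and no block. P-values are two-sided with Benjamini-Hochberg adjustment over all tested genes, and an adjusted p under 0.05 was a call. Ratios were tested by exact permutation with scipy 1.17.1. Simulated tables with 200 altered genes served to check the code. Alternatives were other pseudocounts, filters, scalings, variance models and thresholds, marker covariates, a block on replicate number, and omission of single libraries. Voom weights on the recovered fragments were added after the data were seen.

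The members and gene lists were chosen with earlier results of these data known. Named genes are the 8 members, up to 3 genes with the smallest p of each related list, the 5 nearest profiles to Tap1 and to Nlrc5, Anxa1, and Ptprc, Adipoq, Krt18 and Ddx3y. Calr, Rfx5, Cd52, Cpa1, Prss2, Cela1, Epcam, Lum, Dcn, Retn, B2m, Plin1, Krt8 and Cdh1 were named after their values were seen. Some genes that this rule names are not reported here.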

Additional observations from a re-analysis of the deposited data

How the results depend on the processing

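Without 1 library at a time, limma called 7 to 270 genes higher, 3 to 66 lower and 0 to 6 members, against 120, 28 and 4. With no filter on low values the counts were 10, 8 and 0, and 2287 genes had an unadjusted p under 0.05. With library totals scaled to 1000000, 66 genes and 2 members were called higher, with quantile normalization 74 genes, and with voom weights on recovered fragments 68 genes. At an adjusted p under 0.1, 245 genes were higher and 63 lower. Each covariate gave 0 genes higher, 0 lower and 0 members, with 578 (adipocyte) and 598 (leukocyte) genes at an unadjusted p under 0.05. The causes of these changes were not tested, apart from the looser threshold.

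Numbers 3 and 5 are in both groups, but nothing in the labels says that they pair tumours, and deviations of same-numbered tumours correlated at -0.09 and -0.0085 across genes. With the replicate block, 633 genes were higher, 354 lower and 6 members called. Numbers 2 and 4 are each in a single group, so that fit takes the group difference from tumours 3 and 5 alone. Its counts are therefore not those of a fit to all tumours.

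Tap1, Tap2, Tapbp, Tapbpl, Erap1 and Nlrc5 kept a positive and Canx a negative log2 fold change in all 20 alternatives. Pdia3 turned to -0.11 with the adipocyte covariate, -0.32 with the leukocyte covariate and ranged from -0.0057 (without deficient 5) to 0.21 when single libraries were left out. Of the ratios, Nlrc5 to Ciita moved to -0.87 with a pseudocount of 0.1. Scalings moved the median log2 fold change of all genes by less than 0.1. Counting error was 3.55% at most for the members, and precision is also limited by the 3 tumours a group.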
